A study of Mus musculus with 4 samples.

Results

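The genes described here are 10 genes of Kupffer cells and other macrophages: Spi1, Nr1h3, Csf1r, Adgre1, Cd68, Clec4f, Vsig4, Timd4, Marco and Cd5l. They were listed by name and not by a threshold on any measured value, though with earlier results of these data known, and all 10 were found among the 21883 protein-coding genes placed on the GRCm38 chromosomes. For each gene, peaks of H3K27ac were collected in a window of the gene body plus 10 kb on each side. A peak within 1 kb of either end of the gene was counted as an end peak, and every other peak in the window as distal. A peak was called shared when peaks of both libraries overlapped by at least 1 bp.

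Kupffer cells are the resident macrophages of the liver. They sit in the sinusoids, attached to the liver sinusoidal endothelial cells (LSECs) that line these vessels, and clear particles, microbes and aged blood cells from portal blood. Acetylation of lysine 27 of histone H3 (H3K27ac) is carried by nucleosomes at active promoters and enhancers, so that the genes of a cell type's own program are usually rich in this mark in that cell type.

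H3K27ac was profiled by ChIP-Seq in isolated mouse LSECs, in a pair of libraries whose names carry the numbers 2 and 3 (replicates 2 and 3). The design text gives the search for regulatory elements of LSECs as the purpose. Both libraries belonged to a single condition, so there was no contrast between conditions and no test was run, and each value is given per library without an SD. No source used here says whether the libraries came from separate mice. Strain, genotype, sex, age and treatment of the mice behind them were likewise not given. The methods name Col4a1 fl/wt, Col4a1 fl/wt Cdh5CreERT2 and dCas9-KRAB Cdh5CreERT2 mice as sources of LSECs, where the Cdh5 promoter drives an inducible Cre in endothelium, without saying which of them gave the chromatin. In these methods the liver was perfused with collagenase, and LSECs were captured with magnetic beads against CD146, the product of Mcam, and plated for a few hours. Each H3K27ac library had an input library of the same number, and these 2 inputs were not analysed here.

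Replicate 2 held 26975 peaks and replicate 3 held 64498, a ratio of 2.39. The median width was 322 and 345 bp, and the median fold enrichment over background, as the authors' peak caller gave it, was 9.76 and 8.89. In the replicate 3 list, the median fold enrichment was 6.20 for peaks that replicate 2 lacked. The read depth of either library is unknown, so fold enrichments were compared within a list, by percentile, and not between lists. The cell label was checked on 20 LSEC markers. All 20 had a peak in their window, whereas 30% of all protein-coding genes had none. An end peak of both libraries was found at 15, against 43.4% of all genes. The list had a median of 6 peaks per gene in replicate 2 and 13.5 in replicate 3, against 1 and 2 over all genes. Mcam itself had an end peak in replicate 3 alone, with a fold enrichment of 11.9, and it had a shared distal peak. Its strongest distal peak, which need not be the shared one, had 12.9 in replicate 2 and 62.8 in replicate 3.

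Of the 10 macrophage genes, 4 carried H3K27ac peaks and 6 carried none in either library. The 4 with peaks were Spi1, Nr1h3, Csf1r and Cd68, genes for a lineage transcription factor, a lipid-sensing nuclear receptor, a growth factor receptor and a lysosomal protein. All 5 genes for receptors and a secreted factor by which Kupffer cells are known, Clec4f, Vsig4, Timd4, Marco and Cd5l, were without a peak, and so was Adgre1. A gene window without a peak does not show that the mark is absent, since the depth is unknown. In bulk chromatin, fewer cells of a type and less acetylation per cell cannot be told apart.

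An end peak was found at 3 of the 10 genes in replicate 2, against 43.4% of all protein-coding genes, and at 3 of 10 in replicate 3, against 53.9%. The 3 genes were Spi1, Nr1h3 and Cd68 in each library, and at all 3 an end peak was shared, as it was at 43.4% of all genes. Distal peaks lay at 2 of 10 genes in replicate 2 (40.1% of all genes) and at 4 of 10 in replicate 3 (60.6%). Shared distal peaks were found at 2 of 10, Csf1r and Cd68, against 39% of all genes. Many of these peaks also lay at an end of a neighboring gene. When such peaks were left out, 1 gene, Spi1, kept a shared end peak (30.6% of all genes) and 1 gene, Csf1r, kept a shared distal peak (28.6%). When sharing needed a reciprocal overlap of at least 50%, 1 gene, Nr1h3, kept a shared end peak, against 22% of all genes. No peak of replicate 2 lay in the window of 6 of the 10 (41.4% of all genes), no peak of replicate 3 in that of the same 6 (30.1%), and no peak of either library in that of these 6 (30%). The median number of peaks per window was 0 in both libraries for the 10 genes, against 1 in replicate 2 and 2 in replicate 3 over all genes. The median gene body was 28028 bp for the 10 genes and 17170 bp for all genes.

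**Figure D1:**
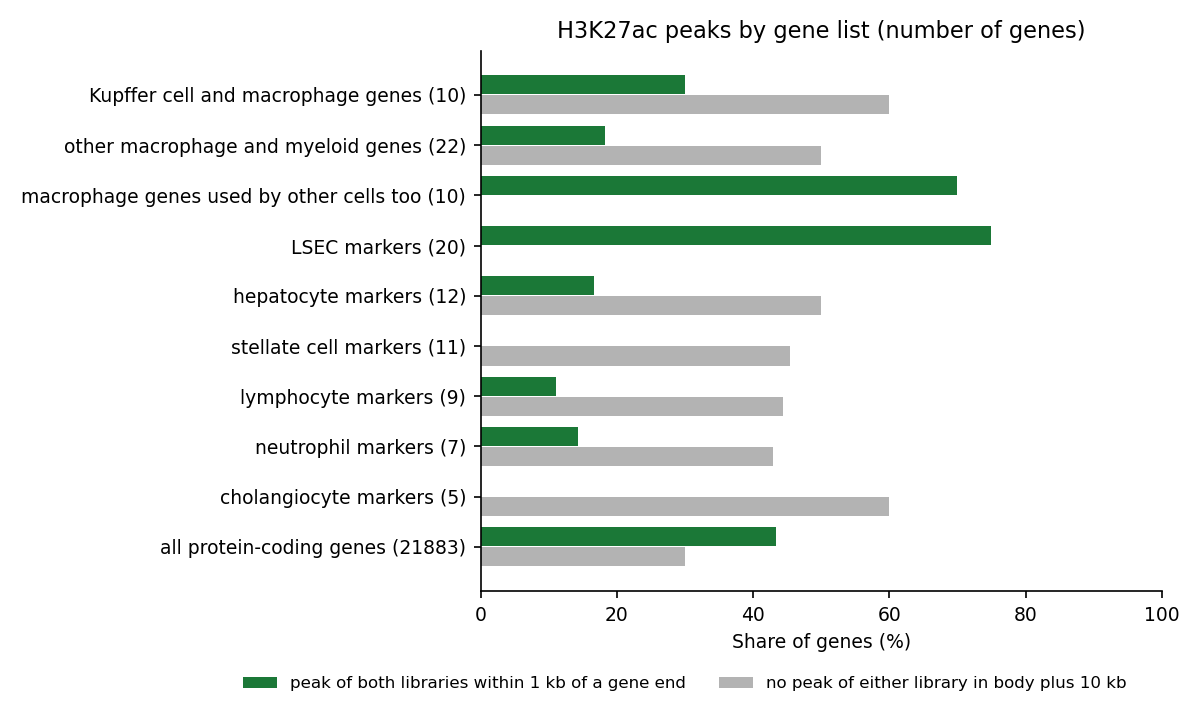
Share of genes (%) with a shared H3K27ac end peak, within 1 kb of either end (green bars), and with no peak of either library in the gene body plus 10 kb (gray bars), for each list with its number of genes in brackets. The 10 Kupffer cell and macrophage genes stand at 30% and 60%, the 20 LSEC markers at 75% and 0, and all 21883 protein-coding genes at 43.4% and 30%.

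Spi1 encodes PU.1, the ETS-family transcription factor on which macrophage development depends. The gene spans chr2:91082374-91115759. Just inside its lower-coordinate end, replicate 2 had a peak at chr2:91082933-91083272 with a fold enrichment of 12.8, and replicate 3 had a wider peak at chr2:91082718-91083471 with 52.1. Within their own lists these values ranked at the 63.6th percentile in replicate 2 and the 92.1st in replicate 3, and the −log10 of the authors' q-value was 20.9 and 232. The summits lay 769 and 694 bp into the gene. No end of another protein-coding gene lay within 1 kb of this region, which made it the only shared end region of the 10 genes with that property.

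Replicate 3 had a further pair of peaks in Spi1 that replicate 2 lacked. The peak at chr2:91101406-91101747, inside the gene body, had a fold enrichment of 14.8. The peak at chr2:91115059-91115400, 359 bp from the higher-coordinate end, had 15.0. Of all replicate 3 peaks within 10% of these fold enrichments, 52.6% and 54.7% had a replicate 2 peak, so that peaks of this strength were present in replicate 2 about as often as not. Peaks of both libraries covered 0.637% of the Spi1 window, at the 51.4th percentile of all genes.

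Nr1h3 encodes LXRα, a nuclear receptor for oxysterols that controls cholesterol efflux genes and helps to maintain Kupffer cell identity. The gene lies on the minus strand at chr2:91184061-91202829, close to Spi1 on the same chromosome. RefSeq lists starts of transcription for it at 91195116 and 91195035. Within 1 kb of these starts, replicate 2 had no peak and replicate 3 had a weak peak at chr2:91194641-91194876 with a fold enrichment of 6.51, the 34.6th percentile of its list, 159 bp from the nearer start. Of replicate 3 peaks of that strength, 5.88% had a replicate 2 peak. The 250 bases before the first of these starts, at chr2:91195117-91195366 on the minus strand (RefSeq, GRCm38.p6), are shown because they hold more CpG dinucleotides than the stretches of the other macrophage genes printed here. Capitals mark the 7 CpG dinucleotides.
Nr1h3: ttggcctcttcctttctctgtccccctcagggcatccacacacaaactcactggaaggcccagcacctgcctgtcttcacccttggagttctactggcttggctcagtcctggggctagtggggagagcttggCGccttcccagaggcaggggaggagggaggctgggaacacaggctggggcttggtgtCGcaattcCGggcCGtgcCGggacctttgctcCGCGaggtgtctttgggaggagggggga

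Both shared regions of Nr1h3 lay at the ends of its body, and each coincided with the start of a neighbor. At the lower-coordinate end, the 3′ end of Nr1h3, the peaks were chr2:91182962-91183426 in replicate 2, with a fold enrichment of 8.63, and chr2:91182701-91183508 in replicate 3, with 24.1. Their summits were 283 and 224 bp upstream of an annotated start of Madd, which encodes an adaptor of death domain receptors. At the higher-coordinate end, the 5′ end of the Nr1h3 body, the peaks of both libraries overlapped that end. They were chr2:91202674-91202959 in replicate 2, with 7.90, and chr2:91202494-91203165 in replicate 3, with 30.6. Both summits were 89 bp upstream of the start of Acp2, a lysosomal acid phosphatase gene, and 7707 bp from the nearer listed start of Nr1h3. The shared regions at Nr1h3 were thus nearer to the starts of Madd and Acp2 than to its own listed starts. The region at Acp2 also covered the 5′ end of the Nr1h3 body. Which gene each region serves was not tested. In fold enrichment they ranked at the 41.5th and 35.1st percentiles of the replicate 2 list, and at the 78.8th and 83.4th of the replicate 3 list. Peaks of both libraries covered 1.94% of the window, at the 75.9th percentile of all genes.

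Csf1r encodes the receptor for the growth factors CSF1 and IL-34, which macrophages need to survive. It spans chr18:61105572-61131139, and neither of its ends had a peak in either library. Its body held the only shared distal region of the 10 genes that was not at the end of another gene. The peak was chr18:61127437-61127872 in replicate 2, with a fold enrichment of 17.6 at the 77.7th percentile, and chr18:61127344-61128031 in replicate 3, with 32.7 at the 84.6th percentile. The −log10 q was 31.7 and 192. The region lay inside the gene, 3267 bp from its higher-coordinate end in replicate 2 and 3108 bp in replicate 3.

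Near the opposite end of Csf1r, replicate 3 had a group of 3 peaks that replicate 2 lacked, at chr18:61107592-61107867, chr18:61108136-61108308 and chr18:61108492-61108872. They began 2020, 2564 and 2920 bp into the gene, with fold enrichments of 8.79, 3.34 and 10.3. Of replicate 3 peaks of those strengths, 16.3%, 2.68% and 24.7% had a replicate 2 peak. The surroundings of Csf1r were rich in the mark, with 29 replicate 2 and 91 replicate 3 peaks within 500 kb of the gene, the highest replicate 3 number of the 10 genes. Peaks of both libraries covered 0.957% of its own window, at the 58.7th percentile.

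Adgre1 encodes F4/80, the surface receptor most used to recognize mouse macrophages. It is the longest of the 10 genes, 124949 bp at chr17:57358581-57483529, and no peak of either library lay in its window. The nearest peak was 22.6 kb below the gene in both libraries, at chr17:57335830-57336012 in replicate 2 and chr17:57335728-57336000 in replicate 3. It was a shared peak, with fold enrichments of 6.10 and 16.6, and it lay in no protein-coding gene and at no gene end. The nearest peak was farther away at 35.4% of all genes in replicate 2 and at 25.8% in replicate 3.

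Cd68 encodes a lysosomal and endosomal glycoprotein that is abundant in macrophages. It is the shortest of the 10 genes, 1958 bp at chr11:69664213-69666170 on the minus strand, and the one with the most peaks, 3 in replicate 2 and 8 in replicate 3. It was also the only member with a shared peak over its own listed start. That peak was chr11:69666142-69666414 in replicate 2, with a fold enrichment of 9.37 at the 46.5th percentile, and chr11:69666032-69666581 in replicate 3, with 16.0 at the 69.6th percentile. The summits lay 97 and 92 bp upstream of the start. The peaks covered 244 and 250 of the 250 bases before the start, which are shown for that reason, from chr11:69666171-69666420 on the minus strand (RefSeq, GRCm38.p6). Capitals mark both matches to the AP-1 motif TGANTCA, which begin 149 and 24 bases before the start. This motif, searched on both strands in 300 bases from 250 before to 50 after each start, was found in 6.99% of the 21262 RefSeq promoters. A match is a description of the letters and not a site that was shown to be bound.
Cd68: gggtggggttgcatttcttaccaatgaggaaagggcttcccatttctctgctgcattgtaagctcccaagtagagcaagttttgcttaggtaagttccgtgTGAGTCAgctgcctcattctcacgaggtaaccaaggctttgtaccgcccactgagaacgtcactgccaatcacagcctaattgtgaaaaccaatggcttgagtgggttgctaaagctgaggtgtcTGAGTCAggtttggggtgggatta

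Most other peaks around Cd68 lay near its neighbors, of whose gene ends 7 fell in the window. The peak over the Cd68 start was itself within 1 kb of the 3′ end of Eif4a1, a translation initiation factor gene, whose start was 6156 bp from the replicate 2 summit. The strongest region in the windows of all 10 genes, with fold enrichments of 40.3 in replicate 2 and 58.4 in replicate 3, lay at chr11:69671176-69672775 and chr11:69670729-69673003, with summits 38 and 67 bp upstream of the Eif4a1 start. It reached the 98.6th and 93.7th percentiles of the lists and also lay within 1 kb of the 3′ end of Senp3, a SUMO protease gene. On the other side, the shared peaks chr11:69662470-69662804 and chr11:69662152-69663017 had fold enrichments of 7.39 and 22.7 and summits 12 and 2 bp from the start of Mpdu1, which takes part in glycan synthesis.

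Replicate 3 alone had 5 more peaks around Cd68. The strongest, at chr11:69663655-69664351 with a fold enrichment of 18.4, covered the 3′ end of Cd68 and was the strongest peak without a replicate 2 partner in the windows of the 10 genes. The weaker ones had 4.54 at chr11:69663180-69663347, 4.10 at chr11:69670315-69670555, 6.51 at chr11:69657276-69657566 and 5.31 at chr11:69655430-69655601. The last lay near Sox15, the one before it near both Sox15 and Mpdu1, and the first near Mpdu1. Peaks of both libraries covered 10.1% of the window, at the 99.5th percentile of all genes. The high share at Cd68 thus came with a short gene among close neighbors, and the part that belongs to Cd68 was not tested.

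**Figure D2:**
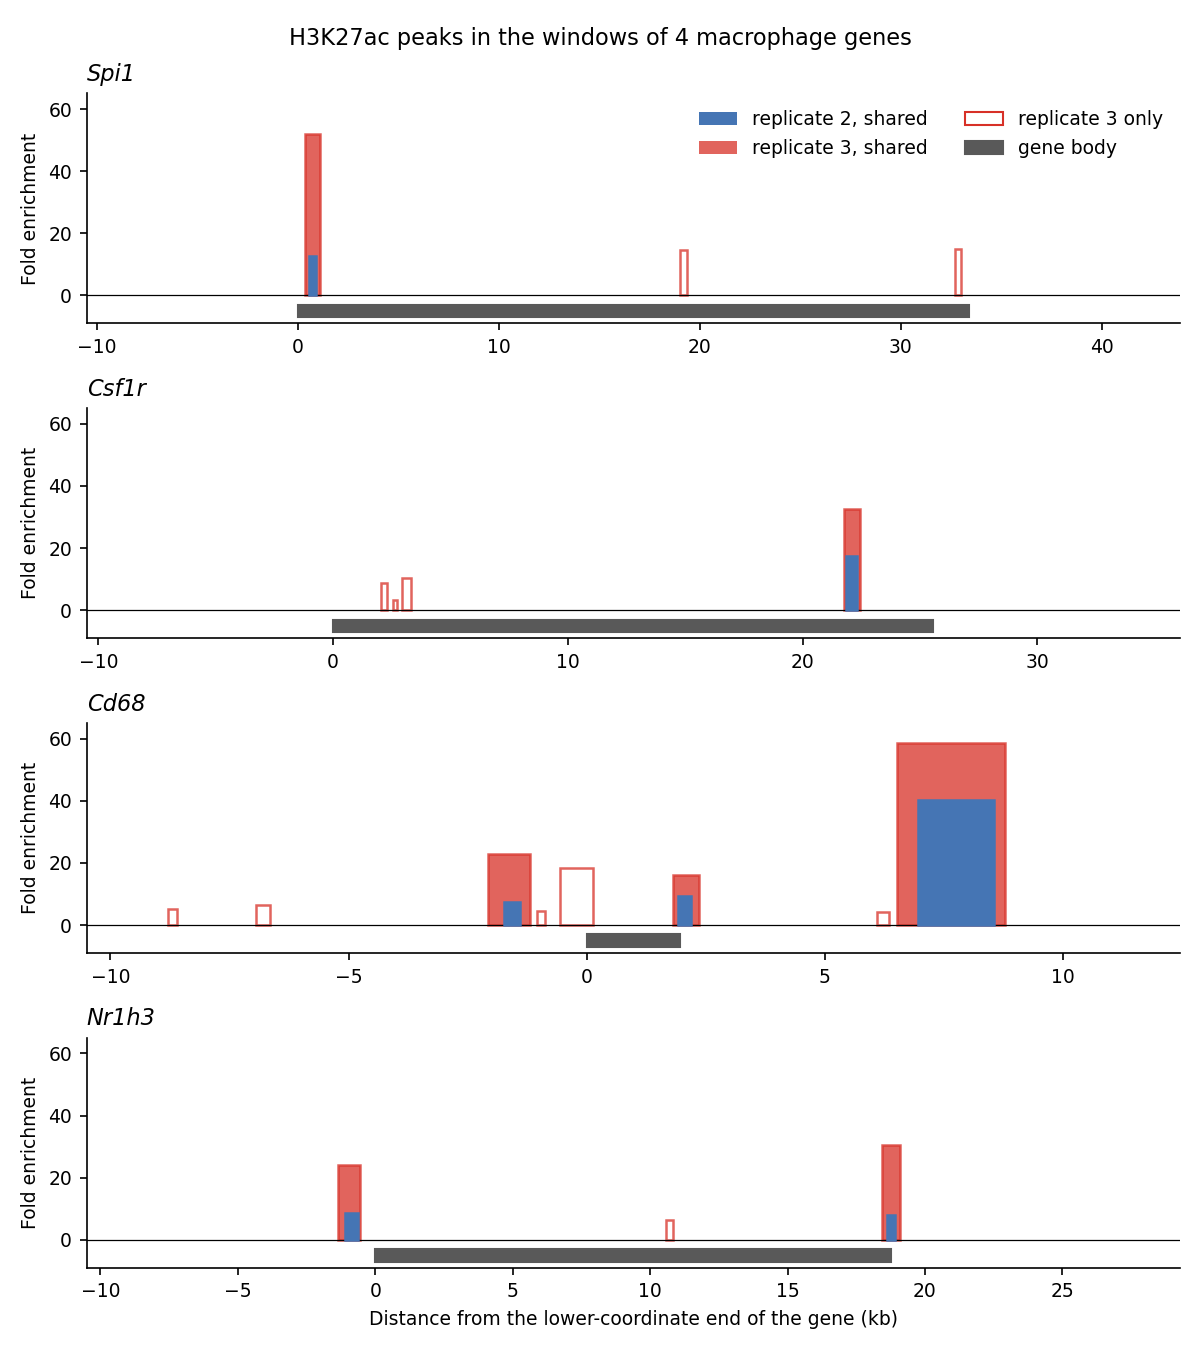
H3K27ac peaks in the gene body plus 10 kb of Spi1, Csf1r, Cd68 and Nr1h3, by distance (kb) from the lower-coordinate end of the gene on the x axis and fold enrichment on the y axis. Each box is a peak (narrow peaks are widened to be visible), filled where both libraries had it, open where replicate 3 alone had it, and the dark bar is the gene body. The shared boxes sit at an end of Spi1, at both ends of Nr1h3, inside Csf1r, and, for Cd68, at 1 end of the gene and to either side of it.

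The 5 genes for Kupffer cell receptors and a secreted factor had no peak in their windows, and the nearest peaks were far away. Clec4f, at chr6:83644542-83656116, encodes a C-type lectin receptor used in mice as a marker of Kupffer cells. Its nearest peak was 71.9 kb away in replicate 2, inside the body of Stambp, with a fold enrichment of 10.2, and 37.8 kb away on the other side in replicate 3, with 10.1 and no replicate 2 partner. The region was otherwise well supplied, with 34 replicate 2 and 62 replicate 3 peaks within 500 kb. The 250 bases before the listed start, chr6:83656117-83656366 on the minus strand (RefSeq, GRCm38.p6), are printed as a contrast to Nr1h3, because they hold 0 CpG dinucleotides and so no capitals.
Clec4f: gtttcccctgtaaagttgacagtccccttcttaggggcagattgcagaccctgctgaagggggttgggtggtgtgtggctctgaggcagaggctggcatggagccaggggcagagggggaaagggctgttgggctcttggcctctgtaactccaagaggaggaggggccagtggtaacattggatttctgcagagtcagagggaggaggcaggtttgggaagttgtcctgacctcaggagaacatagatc

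Vsig4, at chrX:96247201-96293438, encodes CRIg, the receptor with which Kupffer cells bind complement-coated microbes. The nearest replicate 2 peak was 99.2 kb below it, in the body of Msn, with a fold enrichment of 9.49, and the nearest replicate 3 peak was 68.5 kb below it, with 8.85. Of the 6 other protein-coding genes within 500 kb, 4 had a shared end peak.

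Timd4, at chr11:46810786-46844333, encodes TIM-4, a phosphatidylserine receptor for the uptake of dying cells. It was the most isolated of the 10 genes. The nearest peak was 374 kb away in replicate 2, at Med7, with a fold enrichment of 19.7, and 344 kb away in replicate 3, in the body of Havcr2, with 6.20. Only 10.1% of all genes were farther from a replicate 2 peak and 8.89% from a replicate 3 peak. Within 500 kb there were 1 replicate 2 peak and 4 replicate 3 peaks, and 1 of the 11 other genes there had a shared end peak. The scarcity of peaks around Timd4 thus extended well beyond the gene.

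Marco, at chr1:120474538-120505024, encodes a class A scavenger receptor that binds bacteria and particles. The nearest peak was 253 kb away in replicate 2, with a fold enrichment of 6.78, and 81.6 kb away in replicate 3, with 3.91, which was at the 4.04th percentile of that list. Within 500 kb there were 4 and 13 peaks.

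Cd5l, at chr3:87357881-87371074, encodes AIM, a protein that macrophages secrete and that acts in lipid metabolism and cell survival. The nearest peak was 137 kb away in replicate 2, with a fold enrichment of 11.0, and 128 kb away in replicate 3, in the body of Fcrl5, with 9.44. Within 500 kb there were 11 and 34 peaks. The nearest replicate 3 peak of Clec4f, Vsig4, Timd4, Marco and Cd5l had no replicate 2 partner in each case, whereas that of Adgre1 had one. Of all replicate 3 peaks, 37.7% had a replicate 2 partner.

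Over all 10 genes, the median distance to the nearest replicate 3 peak was 30.2 kb, against 0 for all protein-coding genes. Peaks within 500 kb were not as scarce, with a median of 15.5 in replicate 2 and 38.5 in replicate 3 for the 10 genes against 17 and 42 for all. Timd4 and Marco had the fewest peaks around them in both libraries.

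**Figure D3:**
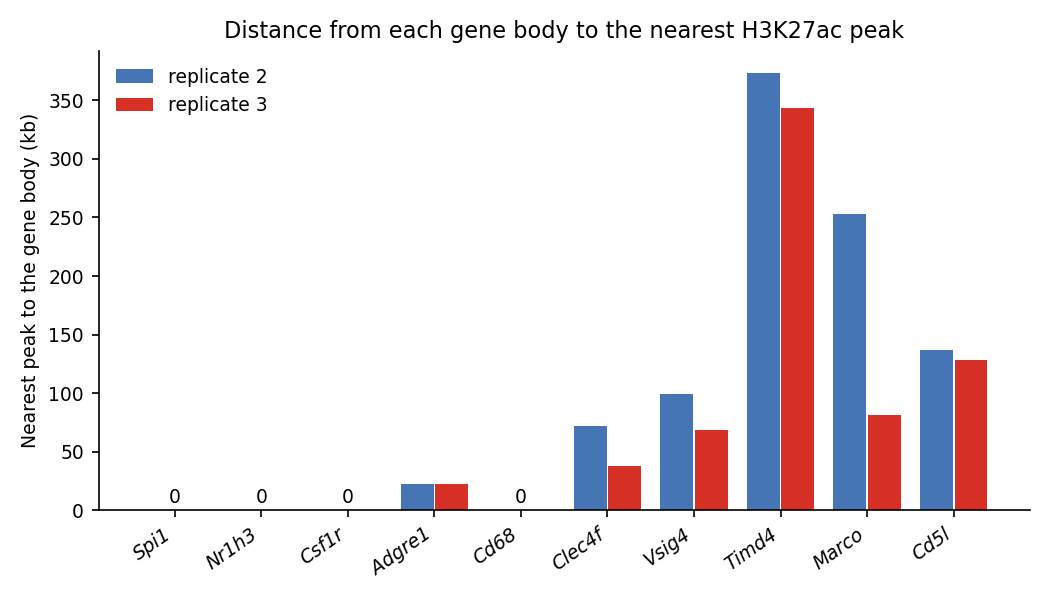
Distance (kb) from the body of each of the 10 genes to the nearest H3K27ac peak, with 1 bar for replicate 2 and 1 for replicate 3. The 4 genes with a 0 have a peak in or touching the body, and Timd4 is the farthest from a peak, at 374 and 344 kb.

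The windows of the 10 genes held 7 replicate 2 peaks, and all 7 had a replicate 3 partner, as did 99.2% of all replicate 2 peaks. They held 18 replicate 3 peaks, of which 7 had a replicate 2 partner and 11 did not. Over the whole replicate 3 list, 37.7% of peaks had a replicate 2 partner. Fold enrichments of the replicate 2 peaks ranged from 7.39 to 40.3 with a median of 9.37, close to the median of that list. The 18 replicate 3 peaks ranged from 3.34 to 58.4 with a median of 14.9, and 11 of them were above the median of their list. Shared replicate 3 peaks had at least 16.0, and those without a partner at most 18.4, so that strength and sharing went together, with an overlap only between 16.0 and 18.4. Across the whole replicate 3 list, ordered by fold enrichment in 10 equal groups, the share with a replicate 2 peak rose from 2.06% in the weakest group to 100% in the strongest. Each macrophage gene peak was set beside the share among all peaks of like strength, so its place on this course is fixed by construction. Whether the 11 unpartnered peaks reflect the lower number of peaks in replicate 2 or a difference between the cells was not tested. Of the 18 replicate 3 peaks, 8 lay within 1 kb of an end of another gene, and of the 7 replicate 2 peaks, 5. In both libraries most of these lay in the window of Cd68, and the share over all peaks was not counted.

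**Figure D4:**
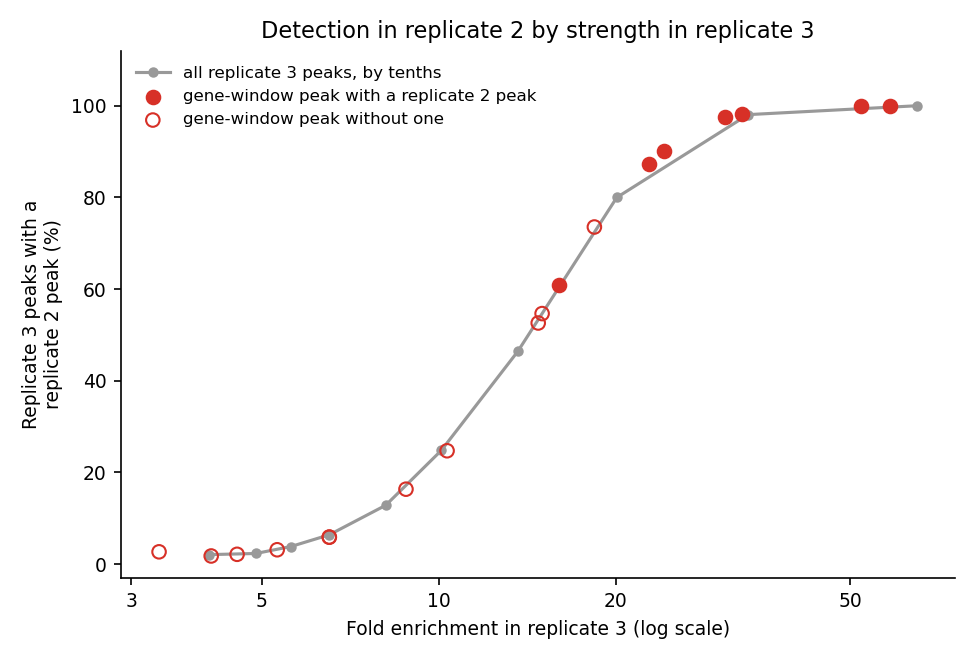
Fold enrichment in replicate 3 (x axis, log scale) against the share (%) of replicate 3 peaks of that strength with a replicate 2 peak (y axis). The gray line gives all 64498 peaks in 10 equal groups, filled circles the 7 peaks in the windows of the 10 genes that had a replicate 2 peak, and open circles the 11 that had none, each placed at the share among all peaks within 10% of its fold enrichment. The open circles lie at or below 18.4.

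Listed promoters were available for 7 of the 10 genes, with a pair of starts for Nr1h3. CpG dinucleotides in 300 bases, from 250 before to 50 after the start, numbered 8 and 10 at Nr1h3, 4 at Cd68, 3 at Vsig4, 5 at Timd4, and 0 at Clec4f, Marco and Cd5l. The median over all 21262 promoters was 13, that of 9432 promoters with peaks of both libraries within 1 kb of the start was 23, and that of 9857 promoters without a peak was 4. The macrophage promoters were thus all below the general median in CpG, and Cd68, with a shared peak over its start, had fewer than the lower quartile of 16 of the promoters with shared peaks. Whether the low CpG content has a part in the missing peaks was not tested. The PU.1 motif GAGGAAGT was in none of the listed promoters of the 7 genes and in 3.13% of all promoters, and the short ETS core GGAA, which overlaps it, was in all of theirs and in 95.7% of all. The MAF motif TGCTGAC was found once, at Timd4 (4.30% of all promoters), and the TATA box TATAAA at none (12.6%).

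**Figure D5:**
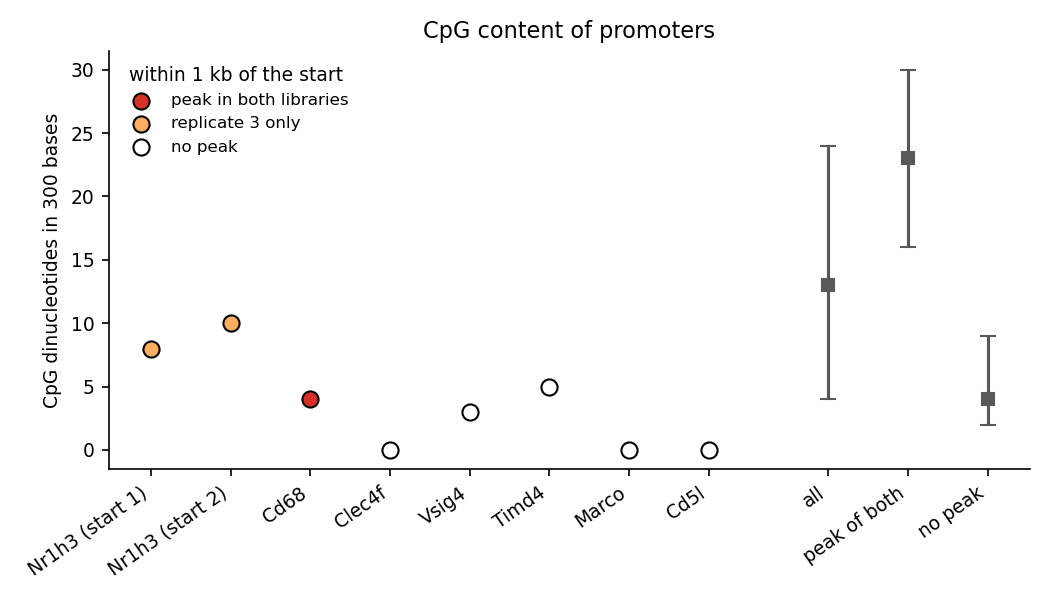
CpG dinucleotides in the 300 bases of each listed promoter (circles), filled red where both libraries had a peak within 1 kb of the start, orange where replicate 3 alone had one, and white where neither had. Squares with bars give the median and quartiles of all promoters, of those with peaks of both libraries and of those with none. All macrophage promoters lie below the general median of 13.

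A list of 32 other macrophage genes was examined in the same way, in a group of 22 macrophage and myeloid genes and a group of 10 macrophage genes that LSECs or many other cells use too. For genes of this and later lists, fold enrichments are of the strongest end peak in each library, unless distal is stated. That peak need not be the shared one. In the first group, 4 of 22 had an end peak of both libraries (18.2%, against 43.4% of all genes). A shared distal peak was found at 8 of 22 (36.4%, against 39% of all genes). These 8 were Fcer1g, Aif1, Fcgr1, Tyrobp, Folr2, Slc11a1, Irf8 and Msr1. Among them, Tyrobp alone lost its shared distal peak when peaks at an end of another gene were left out. No peak at all lay in the windows of 11 of 22 (50%, against 30% of all genes). Among these 11 were Cd163 (a hemoglobin scavenger receptor), the complement genes C1qa, C1qb and C1qc, Cybb, Lyz2, Itgam and Ptprc, which encodes the pan-leukocyte protein CD45. Those with an end peak included Slc11a1, Irf8 and Msr1. Slc11a1, a metal transporter of phagosomes, had fold enrichments of 14.0 in replicate 2 and 37.6 in replicate 3, and Irf8, a myeloid transcription factor, had 11.4 and 30.3. Msr1, a scavenger receptor, had 9.76 and 13.6.

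In the group that other cells use too, 7 of 10 had an end peak of both libraries (70%, against 43.4% of all genes). A shared distal peak was found at 9 of 10 (90%, against 39%), and none was without a peak (against 30%). Id3, a transcriptional inhibitor, had 15.6 and 60.9, Hmox1, which breaks down heme, 19.9 and 56.1, and Lgmn, a lysosomal protease, 18.3 and 47.1. Slc40a1, the iron exporter, had 9.49 and 29.3, and Mertk, a receptor for dying cells, had 8.81 and 24.5. Mrc1, a mannose receptor of both macrophages and LSECs, had 4 replicate 2 and 17 replicate 3 peaks in its window, with the strongest distal ones at 27.1 and 52.1. The median number of replicate 3 peaks was 9 in this group, 0.5 in the macrophage and myeloid group and 0 in the 10 Kupffer cell and macrophage genes.

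Genes linked in various ways to the macrophage receptors and factors were counted next. They were CSF1R ligands, partners and a paralogue of LXRα, genes that LXR regulates, PU.1 partners, and endothelial ETS factors, which share only a family with PU.1. Of these 22 genes, 15 had an end peak of both libraries (68.2%, against 43.4% of all genes), and none lacked a peak (against 30%). Of the 10 macrophage genes, 3 had a shared end peak and 6 lacked a peak, and the difference was not tested. Leaving out peaks at ends of other genes, 13 of the 22 and 1 of the 10 kept one (30.6% of all genes). Of the ligands of CSF1R, Csf1 had an end peak of 13.4 in replicate 2 and 29.4 in replicate 3, whereas the receptor gene had no end peak. Il34 had a shared distal peak, and its strongest distal peaks had 18.3 and 41.0. All 3 genes for the partners and paralogue of LXRα had a shared end peak. Their strongest end peaks had 8.13 and 19.9 at Rxra, 21.7 and 64.5 at Rxrb, and 29.9 and 80.0 at Nr1h2, which encodes LXRβ. The shared end peak of Rxrb was lost when peaks at an end of another gene were left out. Of 6 genes that LXR is known to regulate, 5 had a shared end peak. Mylip, which promotes breakdown of the LDL receptor, was highest with 31.9 and 108, the phospholipid-remodeling gene Lpcat3 had 29.1 and 66.4, and the cholesterol exporter gene Abca1 had 21.7 and 65.3. Srebf1, the lipogenic factor, was the exception, with an end peak of 20.3 in replicate 3 alone. Of 5 partners of PU.1, 3 had a shared end peak. Their strongest end peaks had 50.8 and 91.0 at Jun, 23.6 and 48.7 at Cebpb, and 22.6 and 44.6 at Cebpa. Of 6 ETS factors of endothelium, the family of PU.1, 3 had a shared end peak. Their strongest end peaks had 14.2 and 45.6 at Etv6, 10.8 and 37.5 at Ets2, and 8.13 and 21.2 at Elk3. The shared end peak of Etv6 was lost when peaks at an end of another gene were left out. Erg, which maintains endothelial identity, had none at its ends, and 13 replicate 2 and 32 replicate 3 peaks elsewhere in its window.

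For comparison, LSEC markers with a shared end peak were ordered by their strongest end peak in replicate 3. Highest were Kdr, which encodes a VEGF receptor, with 22.4 in replicate 2 and 60.3 in replicate 3, and Ehd3, with 16.2 and 47.9. In the order of replicate 3, they were followed by Flt4 with 12.2 and 46.5, Lyve1 with 12.9 and 39.5, Cdh5 with 16.3 and 36.1, F8 with 14.2 and 35.2, and Maf with 13.6 and 31.3. Tie1, the lowest of these 8 in replicate 3, had 8.68 in replicate 2. Among these 8, F8 alone lost its shared end peak when peaks at an end of another gene were left out. A shared end peak was found at 2 of 12 hepatocyte markers, 0 of 11 stellate cell markers, 1 of 9 lymphocyte markers, 1 of 7 neutrophil markers and 0 of 5 cholangiocyte markers. The hepatocyte genes were Trf, with 15.9 and 78.8, and Ass1, with 8.13 and 14.0. The lymphocyte gene was Cd79a, with 10.2 and 13.3, and the neutrophil gene S100a8, with 7.44 and 12.0. The shared end peak of Cd79a was lost when peaks at an end of another gene were left out. No peak lay in the windows of 6 of 12 hepatocyte, 5 of 11 stellate cell, 4 of 9 lymphocyte, 3 of 7 neutrophil and 3 of 5 cholangiocyte markers, against 6 of the 10 macrophage genes. Over all genes, 43.4% had a shared end peak and 30% had no peak. These shares were not tested against each other.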

How the data were processed

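H3K27ac ChIP-Seq of isolated mouse LSECs was analysed from 1 peak list for each library. For every peak, the deposited lists hold a fold enrichment (a ratio of signal to background), the −log10 of p and of q as the authors' caller gave them, a score and the summit. Per the labels, chromatin was sonicated and the kit was of the ligation type, whereas the methods describe tagmentation. The submitters' processing notes name cutadapt, BWA 0.7.17, Picard 1.67, MACS2 2.0.10, bedtools 2.27.1 and the build mm10. Whether the inputs entered the calling is not given in the sources used here. The authors called peaks per library, not on pooled libraries. The lists hold no read counts, so depth is unknown, and a deeper library can yield more peaks.

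The lowest −log10 q values were 2.04 (replicate 2) and 2.01 (replicate 3). Gene bodies came from a RefSeq table of GRCm38.p6, the assembly of mm10, which gives no strand. Starts, strands and promoter sequence came from a RefSeq promoter table, which listed 7 of the 10 genes. Exons and introns were not told apart. Percentiles are midranks within a list or among all genes. The assignment script was tested on simulated data.

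The members and lists were chosen with earlier results of these data known. Named are all 10 members, the genes of the other lists with an end peak of both libraries (the 8 strongest in replicate 3 where more), and neighbors with an end within 1 kb of a peak. A gene that this rule names is not reported here. Chosen with their values in view, beyond that rule, were Cd163, C1qa, C1qb, C1qc, Cybb, Lyz2, Itgam, Ptprc, Fcer1g, Aif1, Fcgr1, Tyrobp, Folr2, Msr1, Mrc1, Csf1, Il34, Rxra, Srebf1, Cebpa, Ets2, Elk3, Erg, Mcam and the genes beside distant nearest peaks. Alternatives tried were peaks with q at most 1e-05, equal numbers of the strongest peaks, each library alone, a reciprocal overlap of at least 50%, other distances, windows and rankings, peaks without those at other genes' ends, and the 5′ end alone. Calculations ran in Python 3.11.15 with pandas 2.3.3, numpy 2.4.6, matplotlib 3.10.9 and scipy 1.17.1.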

Additional observations from a re-analysis of the deposited data

How the results depend on the processing

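The count of 3 macrophage genes with a shared end peak stayed at 3 for peaks with q at most 1e-05, with equal numbers of strongest peaks, within 2.5 kb of an end and from either library alone. It fell to 1 with a reciprocal overlap of at least 50% and without peaks at an end of another gene. Among the 7 genes with a listed start, it was also 1 at the 5′ end alone, taken as the listed starts. The count of 6 genes without a peak was 6 throughout, except for 4 in the gene body plus 50 kb, where Adgre1 and Clec4f gained peaks. The count of 2 genes with a shared distal peak was 1 in the gene body alone, 1 without peaks at other genes' ends and 5 with 50 kb, and ranged from 2 to 4 with a library left out, the higher value without replicate 2. The 7 shared regions numbered 3 with reciprocal overlap, 4 in the gene body, 15 with 50 kb and 2 without peaks at other genes' ends, and ranged from 7 to 18 with a library left out, the higher value without replicate 2. With a library left out, nothing can be shared and the peaks of the other library are counted. Such counts cannot fall below the shared ones and are no check of sharing. The 7 replicate 2 peaks became 4, 16 and 2, and the 18 replicate 3 peaks 11, 46 and 10, in the gene body, with 50 kb and without peaks at other genes' ends, and equal numbers of strongest peaks left 10 in replicate 3. The 11 other macrophage genes with a shared end peak became 5 with reciprocal overlap and 6 at the 5′ end, and the 15 LSEC markers 10 with reciprocal overlap, 7 at the 5′ end and 20 from replicate 3 alone. The counts at the 5′ end used fewer genes, 24 and 13, since starts were listed for those alone, and the smaller windows hold fewer peaks by construction. Of all 17491 genes with a listed promoter, 7984 had peaks of both libraries within 1 kb of a start. Shares over all genes were not counted for the gene body alone or with 50 kb. No paired analysis was possible because the libraries belong to 1 condition. The unknown depth limits what a missing peak can show, above all in replicate 2.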
